A study of Mus musculus with 2 samples.

Results

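Transcripts of 8 genes of the class 3 semaphorin pathway, out of 32285 genes in the count matrices, were followed across cell groups of the newborn mouse brain. The genes are the secreted ligands Sema3a, Sema3c and Sema3e, the neuropilins Nrp1 and Nrp2, and the plexins Plxna2, Plxna4 and Plxnd1. They were picked by symbol after their values in these libraries had been seen, so their levels and the order of their levels are given as a description with no test. Both libraries, replicate 1 and replicate 2, were made from pooled pallial tissue of Wild-type mice at postnatal day 3 (P3). Cells had been dated at embryonic day 12 (E12) with EdU, a thymidine analogue that is taken up by dividing cells, and sorting had kept the PI-negative cells whose EdU signal was in the brightest 10%, and their polyA RNA was captured in droplets. Both libraries belong to the only group of the study, so the comparisons are between kinds of cells within a library.

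Class 3 semaphorins are secreted proteins that steer growing axons and migrating cells. Most of them bind a neuropilin, which has a short cytoplasmic tail, and a plexin of the A family passes the signal on through small GTPases. Sema3e differs in that it can bind Plxnd1 directly, and Nrp1 and Nrp2 also bind vascular endothelial growth factors. In the developing cortex this system is known for guiding callosal and corticofugal axons and for orienting migrating neurons and their dendrites.

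The promoters of the members that were highest in glutamatergic cells are shown because the glutamatergic cells were chosen by 2 transcription factor genes, Neurod2 and Neurod6, whose proteins bind E-boxes (CANNTG, which reads the same motif on both strands). RefSeq promoters of GRCm38.p6 were found for 7 of the 8 members, and Plxna4 is named only. Each runs from 250 bases before to 50 bases after the gene's start, on the gene's strand, and capitals mark each CANNTG. The windows are chr5:17574566-17574865 (+) for Sema3c, chr8:128358823-128359122 (+) for Nrp1, chr1:194619579-194619878 (+) for Plxna2 and chr5:13396534-13396833 (+) for Sema3a.
Sema3c: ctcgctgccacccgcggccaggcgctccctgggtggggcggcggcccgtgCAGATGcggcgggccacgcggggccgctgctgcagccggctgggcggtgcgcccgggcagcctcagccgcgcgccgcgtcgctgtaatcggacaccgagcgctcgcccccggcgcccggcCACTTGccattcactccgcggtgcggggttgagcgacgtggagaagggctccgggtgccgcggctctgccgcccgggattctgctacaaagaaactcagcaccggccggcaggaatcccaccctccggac
Nrp1: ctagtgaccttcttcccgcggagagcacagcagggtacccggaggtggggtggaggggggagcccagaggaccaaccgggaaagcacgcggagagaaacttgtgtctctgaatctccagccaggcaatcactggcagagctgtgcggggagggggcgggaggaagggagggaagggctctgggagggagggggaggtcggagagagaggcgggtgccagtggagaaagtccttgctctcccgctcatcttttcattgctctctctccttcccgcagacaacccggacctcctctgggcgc
Plxna2: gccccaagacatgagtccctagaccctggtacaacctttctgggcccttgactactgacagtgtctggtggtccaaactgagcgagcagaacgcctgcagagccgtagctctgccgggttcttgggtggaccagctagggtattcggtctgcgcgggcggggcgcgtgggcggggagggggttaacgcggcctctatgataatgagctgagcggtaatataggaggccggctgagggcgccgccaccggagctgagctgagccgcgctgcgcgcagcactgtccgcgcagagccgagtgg
Sema3a: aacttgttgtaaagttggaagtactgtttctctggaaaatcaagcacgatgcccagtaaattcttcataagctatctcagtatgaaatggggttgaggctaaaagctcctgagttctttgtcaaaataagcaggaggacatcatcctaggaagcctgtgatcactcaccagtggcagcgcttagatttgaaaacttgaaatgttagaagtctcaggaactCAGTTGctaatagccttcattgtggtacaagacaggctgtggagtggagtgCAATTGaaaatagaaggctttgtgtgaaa
The Sema3c window holds CAGATG at position -200 and CACTTG at -80 relative to the start, and the Sema3a window holds CAGTTG at -30 and CAATTG at 22. The windows of Nrp1, Plxna2 and Plxnd1 hold none, that of Nrp2 holds 1 and that of Sema3e holds 2. Across all 32851 RefSeq mouse promoters of this length, 72.3% hold at least 1 CANNTG and 17.2% hold CAGATG on either strand. The Sema3c window has a GC content of 75.7% and the Sema3a window 41.3%, against a median of 52.7% over all promoters. These are matches of letters only. Each window printed above lies inside the longer GENCODE gene model of its gene, so it belongs to a start downstream of the first annotated one. These models are chr5:17574281-17730268 for Sema3c, chr8:128358604-128503363 for Nrp1, chr1:194618218-194816869 for Plxna2 and chr5:13125414-13602565 for Sema3a. The sequence before the first annotated start of these genes was not searched.

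The files held 13858 and 14513 barcodes with 97091962 and 108903409 unique molecular identifiers (UMIs) in replicates 1 and 2, and 62 barcode sequences occurred in both. Barcodes with at least 500 genes and at most 10% mitochondrial UMIs numbered 11228 and 10965. They were assigned to 6 groups by at least 2 UMIs of Pdgfra (oligodendrocyte precursor cells, OPC; 3666 and 3741 cells), Aqp4 (astroglia; 1490 and 1477), Neurod2 plus Neurod6 (glutamatergic; 1010 and 1007), Gad1 plus Gad2 (GABAergic; 975 and 1012) or C1qa (130 and 145), or by at least 10 UMIs of Reln (Cajal-Retzius; 85 and 92). A barcode that passed both the Reln gate and the Neurod2 plus Neurod6 gate, and no other, was counted as Cajal-Retzius. Barcodes in no group made up 27.4% and 23.0%. Those with any other combination of gates, 7.13% and 8.80%, were left out of the groups. Median UMIs per cell ran from 6126.5 in glutamatergic to 17650 in Cajal-Retzius cells of replicate 1, and from 6881.5 in GABAergic to 17407.5 in Cajal-Retzius cells of replicate 2. The part of the Reln minimum in the depth of Cajal-Retzius cells was not tested.

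The gates were checked with 5 further markers per group. The glutamatergic list summed to 597 and 667 UMIs per 1000000 UMIs of the group (CPM) in glutamatergic cells, and to between 5.48 and 16.2 CPM in OPC, astroglia, GABAergic and C1qa cells. Its member Slc17a7, the transporter of mature cortical excitatory neurons, was at only 3.75 and 4.23 CPM. Tbr1, Bhlhe22 and Slc17a6 of that list were also high in Cajal-Retzius cells, which are themselves excitatory. In C1qa cells the microglial gene Cx3cr1 (1262.87 and 1215.16 CPM) stood beside Mrc1 (751 and 734 CPM) and Pf4 (1371 and 1000.91 CPM), markers of brain border macrophages. The gate does not separate these kinds of cell, so the group is called C1qa cells here.

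Sema3c, a ligand known for guiding callosal axons, was concentrated in glutamatergic cells. Its level there was 276 CPM in replicate 1 and 355 CPM in replicate 2. The next group, Cajal-Retzius cells, had 15.8 and 8.55 CPM, and the mean in glutamatergic cells was 26.0 times theirs. GABAergic cells had 9.82 and 6.14 CPM, astroglia 6.41 and 6.52, OPC 3.37 and 3.85, and C1qa cells 1.90 and 0.914. Glutamatergic cells stood above every other group in both libraries, while the neighbouring values of Cajal-Retzius and GABAergic cells, and of GABAergic cells and astroglia, overlapped. Glutamatergic cells were 9.00% and 9.18% of the cells and held 56.5% and 61.2% of the Sema3c UMIs.

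Counted per cell, Sema3c UMIs were found in 67.3% and 78.4% of glutamatergic cells. After each cell was thinned to 2000 UMIs, which left out shallower cells, the shares were 40.7% (368 of 905 cells, exact 95% interval 37.4% to 43.9%) and 47.9% (460 of 961, 44.7% to 51.1%). The thinned share was 1.37% and 1.15% in GABAergic cells and 0.671% and 0.707% in OPC. Free RNA gives every droplet some UMIs, and the glutamatergic transcripts Neurod1, Tbr1, Bhlhe22 and Slc17a6 stood in OPC, astroglia and GABAergic cells at 0.56% to 3.06% of their glutamatergic level. Sema3c stood there at 1.08% to 3.56% of its own level, near the range of these background genes. Its highest value, in GABAergic cells of replicate 1, lay above that range. The levels in these 3 groups are not read as expression, and the part of free RNA or doublets in them was not tested. In Cajal-Retzius cells Tbr1, Bhlhe22 and Slc17a6 are themselves high and give no background. Sema3c stood there at 5.71% and 2.41% of its glutamatergic level, from 20 and 13 UMIs. Neurod1, which was low in these cells, stood there at 4.20% and 2.41% of its own glutamatergic level. The Sema3c level in Cajal-Retzius cells was thus near that of this gene and is not read as expression either.

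Sema3a, the first class 3 semaphorin known to collapse growth cones, also had its highest level in these cells. Glutamatergic cells had 26.1 and 30.3 CPM and GABAergic cells 6.12 and 7.02 CPM, a mean 4.29 times lower. Astroglia had 3.32 and 3.94 CPM, OPC 3.22 and 3.14, Cajal-Retzius cells 2.36 and 1.97, and C1qa cells 0 and 0.457. No neighbours in this order overlapped between libraries, but the Cajal-Retzius values rest on 3 UMIs in each library. Sema3a in GABAergic cells was 23.5% and 23.2% of the glutamatergic level, above the 0.83% to 3.06% of the glutamatergic background genes there. Thinned shares in glutamatergic cells were 5.30% and 4.79%.

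Sema3e, the ligand of Plxnd1, was close to the floor, with 80 and 112 UMIs in all kept cells. OPC held 45 and 50 of these, at 1.40 and 1.36 CPM. Cajal-Retzius cells had 2 UMIs in each library, which gives 1.58 and 1.32 CPM, and glutamatergic cells had 4 and 7 UMIs, or 0.625 and 0.954 CPM. C1qa cells had no UMI in either library. Astroglia had 2 UMIs in each library, or 0.151 and 0.136 CPM, below OPC in both. The order among OPC, Cajal-Retzius, GABAergic and glutamatergic cells was not resolved, as all but OPC had at most 10 UMIs in a library. The group with the highest mean held that place in 5 of 8 settings.

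**Figure D1:**
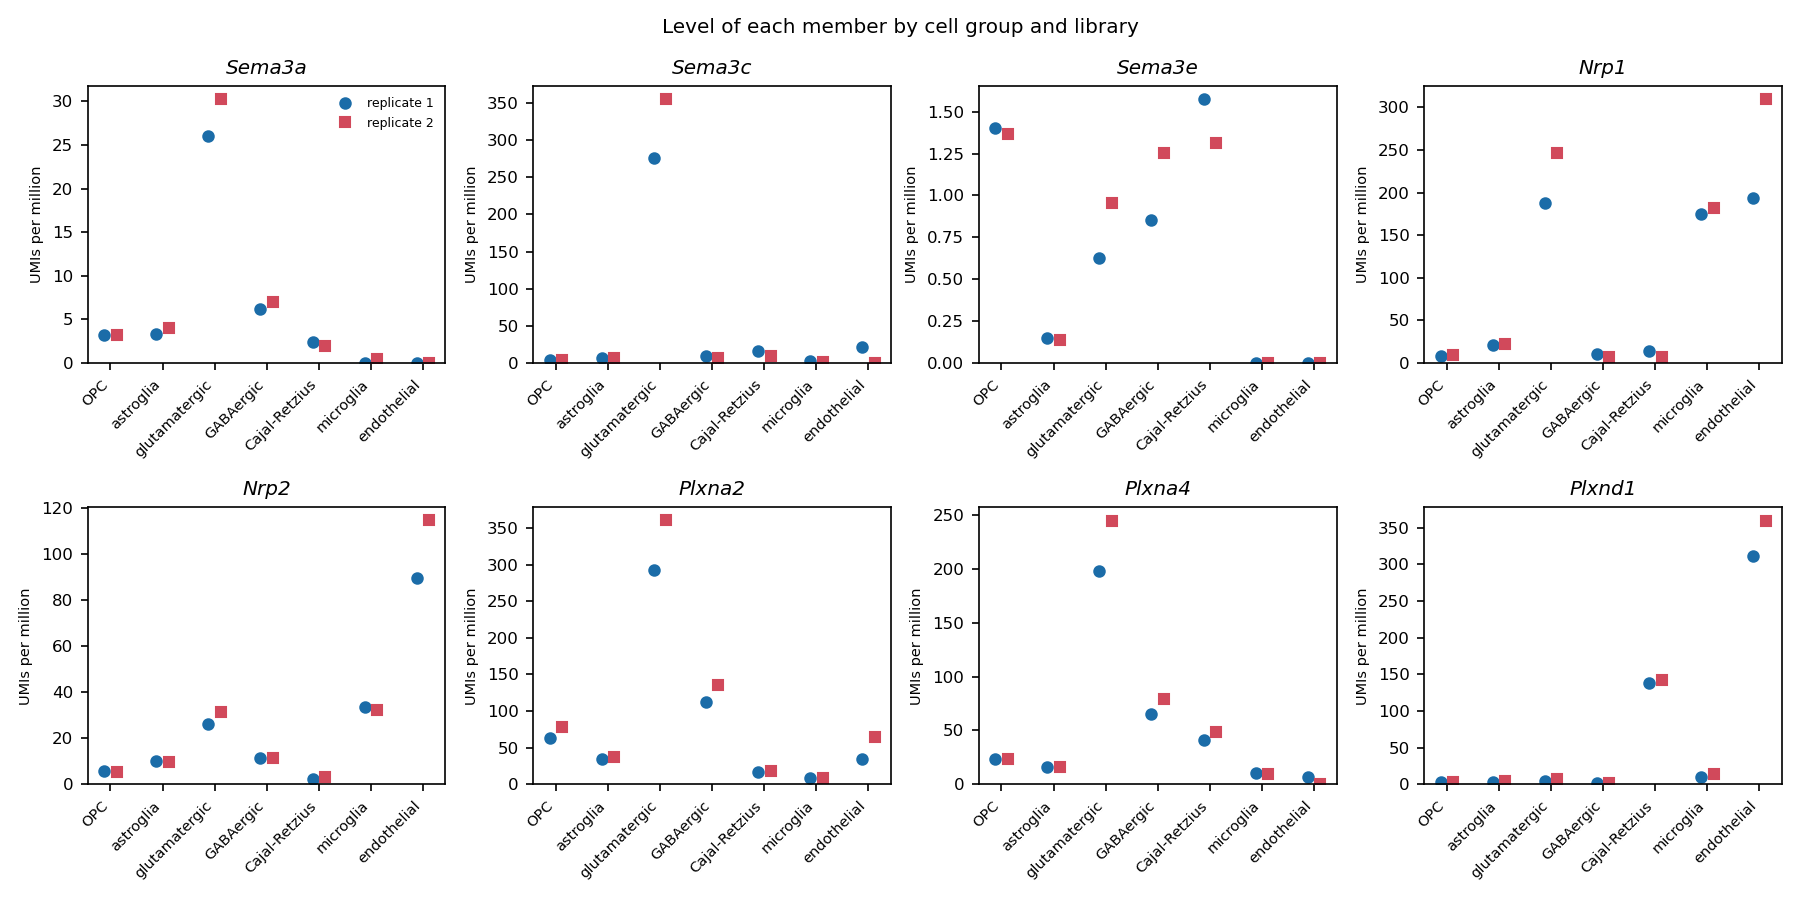
Level of the 8 members in CPM (linear axes starting at 0, scaled per panel) in 6 cell groups and in endothelial cells, with 1 point for each library. Sema3a, Sema3c, Plxna2 and Plxna4 are highest in glutamatergic cells, Nrp1 is high in glutamatergic, C1qa (labelled microglia) and endothelial cells, and Plxnd1 in Cajal-Retzius and endothelial cells.

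Nrp1, the neuropilin that Sema3a requires, was high in glutamatergic cells and in C1qa cells. The level was 188 and 247 CPM in glutamatergic cells and 175 and 182 CPM in C1qa cells, and these means differed 1.22-fold. Astroglia had 21.4 and 21.7 CPM, Cajal-Retzius cells 13.4 and 6.58, OPC 8.15 and 9.20, and GABAergic cells 10.4 and 6.39. The glutamatergic and C1qa values did not overlap, but in replicate 1 they lay close to each other. The last 3 groups overlapped their neighbours in the order. After thinning, Nrp1 was found in 29.9% and 33.7% of glutamatergic cells (exact 95% intervals 27.0% to 33.0% and 30.7% to 36.8%) and in 35.0% and 29.2% of C1qa cells (26.5% to 44.2% and 21.9% to 37.3%), so the shares overlapped.

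Among C1qa cells, those with at least 2 UMIs of Mrc1 plus Pf4 (114 of 130 and 131 of 145) had 185 and 190 CPM of Nrp1, and the remaining 16 and 14 cells had 84.6 and 87.4 CPM, from 13 and 16 UMIs. This split was made after the values had been seen. Thus Nrp1 UMIs were present on both sides of it.

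Nrp2, which pairs with other class 3 semaphorins such as Sema3f, was highest in C1qa and glutamatergic cells. C1qa cells had 33.6 and 32.4 CPM, from 53 and 71 UMIs, and glutamatergic cells 26.2 and 31.4 CPM. GABAergic cells had 11.5 CPM in both libraries, astroglia 10.1 and 9.64, OPC 5.78 and 5.40, and Cajal-Retzius cells 2.36 and 3.29. The C1qa mean was 1.15 times the glutamatergic one with no overlap between libraries. Nrp2 in GABAergic cells was 43.9% and 36.8% of the glutamatergic level and in astroglia 38.5% and 30.7%, above the background genes.

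Plxna2, a plexin that also binds class 6 semaphorins, was spread over more cell groups than the ligands. Glutamatergic cells had 292 and 360 CPM, GABAergic cells 112 and 135, OPC 63.3 and 78.9, astroglia 34.0 and 37.6, Cajal-Retzius cells 16.5 and 18.4, and C1qa cells 8.23 and 8.22. No neighbours overlapped, and the glutamatergic mean was 2.64 times the GABAergic one. In OPC the level was 21.7% and 21.9% of the glutamatergic level, above the 1.06% to 2.94% of the background genes there. The thinned share of glutamatergic cells with Plxna2 was 47.0% and 51.0%, against 20.8% and 23.8% in GABAergic cells and 11.9% and 14.5% in OPC.

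Plxna4, the plexin through which Sema3a acts on many axons, followed a like order with Cajal-Retzius cells in the third place. Its level was 198 and 245 CPM in glutamatergic cells, 65.2 and 78.9 in GABAergic cells, 41.0 and 48.7 in Cajal-Retzius cells, 23.1 and 23.9 in OPC, 15.9 and 15.7 in astroglia, and 10.8 and 9.14 in C1qa cells. No neighbours overlapped. The exons of Plxna4 (chr6:32144268-32588192, minus strand, GENCODE on GRCm38) overlap those of Plxna4os3 on the opposite strand, and no source used here gives the setting for strand in counting. Plxna4os3 itself had 0 UMIs in all 6 groups of both libraries.

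Plxnd1 had a different pattern from the other plexins. Cajal-Retzius cells, the early Reln-secreting neurons of the marginal zone, had 139 and 142 CPM (176 and 216 UMIs). C1qa cells had 9.50 and 14.6 CPM, glutamatergic cells 4.84 and 6.82, astroglia 3.70 and 4.68, OPC 2.81 and 3.33, and GABAergic cells 1.28 and 1.5045. The Cajal-Retzius mean was 11.6 times the next. No neighbours overlapped, but the place of glutamatergic cells rests on barcodes with vascular markers, whose values follow. These cells were 0.757% and 0.839% of all cells and held 32.5% and 28.0% of the Plxnd1 UMIs. Thinned shares were 22.4% (exact 95% interval 14.0% to 32.7%) and 28.6% (19.6% to 39.0%) in Cajal-Retzius cells.

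Plxnd1 is known for its role in endothelial cells, so vascular markers were set beside it. Cells with Cldn5 outside the 6 groups numbered 16 and 24 and had 311 and 360 CPM of Plxnd1 (45 and 94 UMIs), 194 and 310 CPM of Nrp1 and 89.9 and 115 CPM of Nrp2, with haemoglobin transcripts Hba-a1 plus Hbb-bs at 30129 and 7672 CPM. In Cajal-Retzius cells the endothelial list of 5 genes summed to 22.1 and 31.6 CPM, against 9391 and 8468 CPM in the endothelial cells. The list holds Cldn5, the gene that set the endothelial cells, at 6196 and 5292 CPM there, so most of their sum follows from that choice. Its other genes Pecam1, Flt1, Cdh5 and Egfl7 were each at 306 to 1570 CPM in endothelial cells and 0 to 23.7 CPM in Cajal-Retzius cells. The endothelial receptors Flt1 and Kdr had 0 UMIs in Cajal-Retzius cells. Of the mural list only Rgs5 was present in Cajal-Retzius cells, at 62.2 and 90.8 CPM, with Kcnj8 and Vtn at 0. Without the 20 and 34 Cajal-Retzius cells that had at least 2 UMIs of Cldn5, Rgs5 or Vtn, Plxnd1 was at 129 and 138 CPM.

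In glutamatergic cells of replicate 2, by contrast, 1 barcode with Cldn5 or Vtn UMIs held 30 of the 50 Plxnd1 UMIs and 37 of the 1812 Nrp1 UMIs. Without the 3 glutamatergic barcodes of replicate 2 that had at least 2 UMIs of Cldn5, Rgs5 or Vtn, Plxnd1 was at 2.75 CPM and Nrp1 at 244 CPM. The endothelial list stood at 4.69 CPM in glutamatergic cells of replicate 1, with 2 of its 5 genes at 0, and at 62.0 CPM in replicate 2. The glutamatergic Plxnd1 level of replicate 2 was thus below that of replicate 1 without these barcodes and above it with them, while the Nrp1 level stayed above. Astroglia without barcodes with these markers had 3.63 and 3.99 CPM of Plxnd1, so the glutamatergic values of 4.84 and 2.75 CPM then overlapped them.

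**Figure D2:**
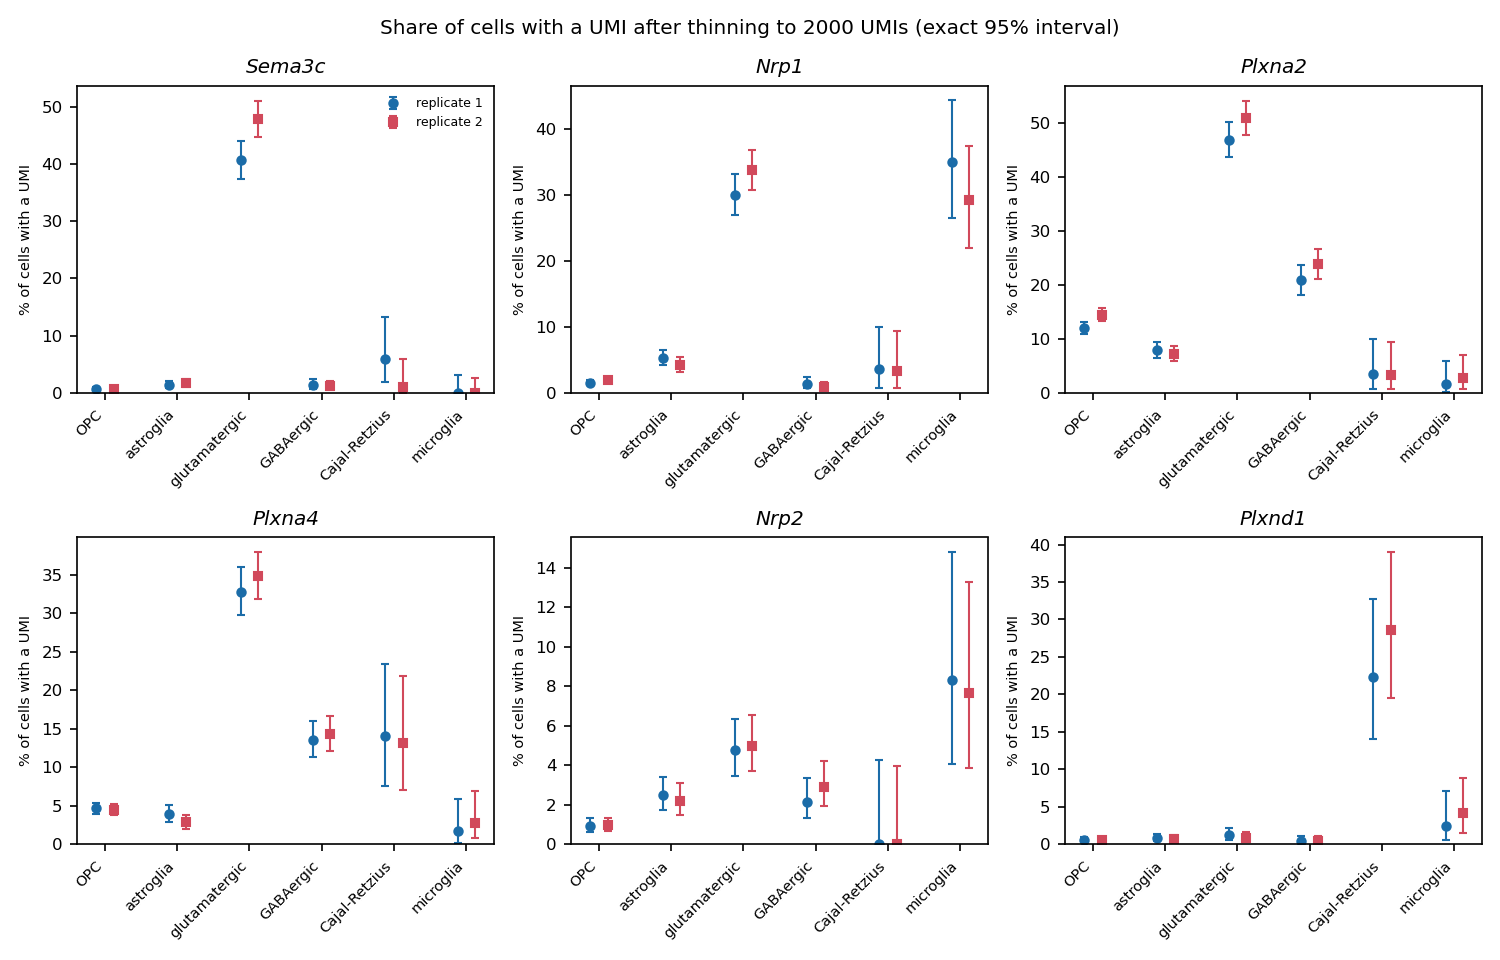
Share of cells with at least 1 UMI of 6 members after each cell was thinned to 2000 UMIs, by cell group, with 1 point for each library and exact 95% intervals that cover counting error only. Sema3c is found in 40.7% and 47.9% of glutamatergic cells and is near 0 in OPC and GABAergic cells, while Plxna2 falls in steps across the groups.

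Inside the glutamatergic group, cells with at least 2 UMIs of Eomes (intermediate progenitors; 89 and 135 cells) were set against those of the remaining cells with at least 2 UMIs of Tbr1, a gene of early-born deep-layer neurons (191 and 254). Nrp1 was at 73.7 and 107 CPM in Eomes cells and at 176 and 221 CPM in Tbr1 cells. The values did not overlap.

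Sema3c was at 202 and 289 CPM in Eomes cells and at 299 and 378 CPM in Tbr1 cells. Plxna2 was at 209 and 270 CPM in Eomes cells and at 350 and 407 CPM in Tbr1 cells. Plxna4 had the same order, with 147 and 192 CPM in Eomes cells and 232 and 298 CPM in Tbr1 cells. Thus Sema3c, Nrp1, Plxna2 and Plxna4 were each lower in Eomes than in Tbr1 cells in both libraries, with no overlap.

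Nrp2 had no stable order, with 25.4 and 49.9 CPM in Eomes cells and 47.0 and 27.4 CPM in Tbr1 cells. The direction was reversed between libraries. Sema3a was at 31.4 and 35.4 CPM in Eomes cells and at 28.2 and 28.0 CPM in Tbr1 cells.

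Inside the GABAergic group, cells with Adarb2, a gene of caudally derived interneurons, had the highest Plxna4 level. It was 179 and 221 CPM in the 150 and 168 Adarb2 cells, 71.5 and 72.5 CPM in the 263 and 280 Sp8 cells, and 35.8 and 46.8 CPM in the 366 and 381 dividing cells. Adarb2 cells thus overlapped the range of all glutamatergic cells for this plexin, and these 3 subgroups did not overlap. Plxna2 was at 167 and 196 CPM in Adarb2 cells, 120 and 145 in Sp8 cells and 96.8 and 116 in dividing cells. Nrp2 was at 38.6 and 24.2 CPM in Adarb2 cells and 4.71 and 6.11 CPM in dividing cells. Sema3c in Adarb2 cells was at 26.2 CPM in replicate 1 and 7.70 CPM in replicate 2, from 19 and 7 UMIs.

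**Figure D3:**
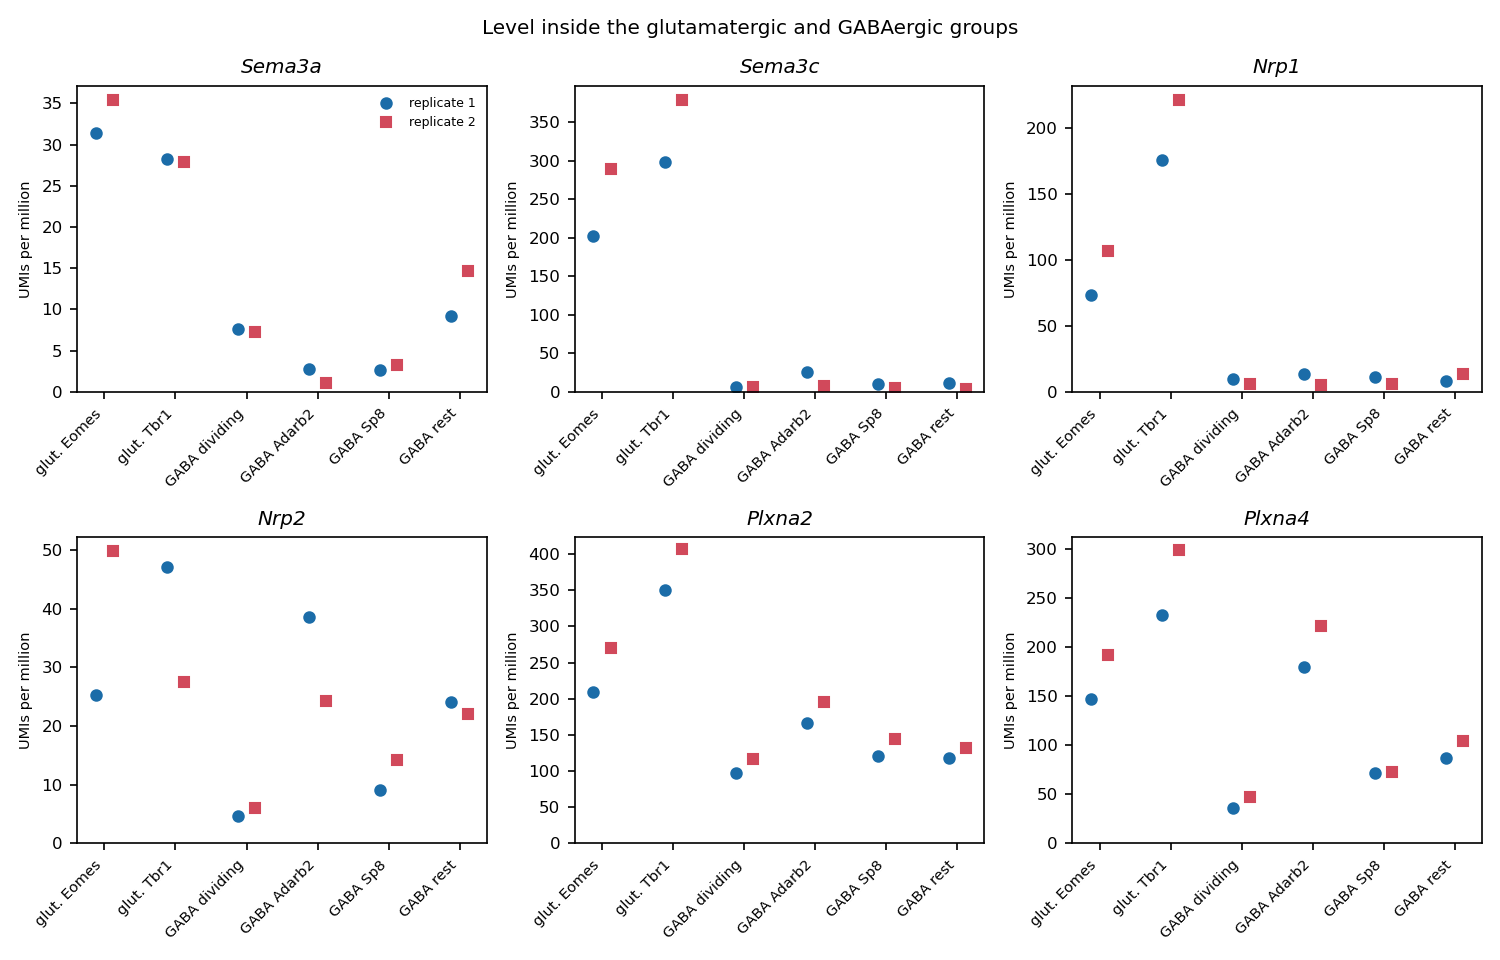
Level of 6 members in CPM (linear axes starting at 0, scaled per panel) in subgroups of the glutamatergic (glut.) and GABAergic (GABA) cells, with 1 point for each library. Nrp1 is lower in Eomes than in Tbr1 cells, and Plxna4 is highest in Adarb2 cells among the GABAergic subgroups.

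All 8 members had a higher glutamatergic level in replicate 2 than in replicate 1, except Plxnd1 once the barcodes with vascular markers were removed. The ratio was 1.29 for Sema3c, 1.31 for Nrp1, 1.23 for Plxna2, 1.24 for Plxna4, 1.19 for Nrp2 and 1.16 for Sema3a. Tbr1 and Bhlhe22 had ratios of 1.20 and 1.18, Neurod1 had 0.910, and the OPC gene Olig1 fell from 219 to 145 CPM in the same cells. The part of these differences in the ratios was not tested.

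Member transcripts were also counted together in single glutamatergic cells, for 7 pairs. At 2000 UMIs per cell, Sema3c was present in 48.7% of Nrp1-positive cells (132 of 271, exact 95% interval 42.6% to 54.8%) and in 37.2% of Nrp1-negative cells (33.4% to 41.1%) of replicate 1. The shares in replicate 2 were 54.6% (49.0% to 60.1%) and 44.4% (40.5% to 48.4%). The intervals did not overlap in either library. Plxna4 was present in 37.6% and 39.8% of Plxna2-positive cells and in 28.5% and 29.7% of Plxna2-negative cells, again with no overlap of intervals. The ligand and receptor pair Sema3c and Plxna4 changed direction between libraries. Plxna4 was present in 38.3% of Sema3c-positive and 29.1% of Sema3c-negative cells of replicate 1, but in 33.5% and 36.1% in replicate 2. Among Nrp1-positive and Nrp1-negative cells, Sema3a was present in 6.27% and 4.89% in replicate 1 and in 5.56% and 4.40% in replicate 2. Plxna2 was present in 52.8% and 44.5%, then 54.3% and 49.3%, and Plxna4 in 36.5% and 31.2%, then 38.3% and 33.1%, of these cells. The intervals overlapped for these 3 pairs in both libraries. For Nrp2 with Nrp1 the shares were 4.80% against 4.73% in replicate 1 and 3.70% against 5.65% in replicate 2, which shows no common direction. These pairs are cells within a library, not replicates. Eomes and Tbr1 cells, which differed in Sema3c, Nrp1, Plxna2 and Plxna4, were counted together here. The part of that mixture in the shares was not tested.

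The genes with the pattern most like each member were ranked by Pearson's r of log2(CPM + 1) over 28 points, 14 groups and subgroups in each of 2 libraries. For Sema3c these were Neurod2 (r = 0.98), Ttc28 (0.97) and Neurod6 (0.97), where Neurod2 and Neurod6 are the genes that set the glutamatergic group. Plxna2 was closest to Bzw2 (0.97), and Plxna4 to Dnajb6 (0.96). Nrp1 reached only 0.83 with Hivep2, Nrp2 0.83 with Hdac9, Sema3a 0.92 with Sh3rf3 and Plxnd1 0.88 with Atp6v0c. The points share libraries and nested groups, so r is a description.

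The remaining 61 listed genes of the pathway were compared with glutamatergic cells by edgeR's quasi-likelihood test on UMI counts summed per group and library, with Benjamini-Hochberg adjustment over 15003 genes. Of these 61, 59 were tested (not Sema3g and Vegfd). The list was chosen with earlier results of these data known, so its shares beside those of all genes are a description. All 4 comparisons use the same glutamatergic sums, so their results are not independent of each other.

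GABAergic cells had lower levels of 8 semaphorins outside the members, 1 of them of class 3 (Sema3f), and a higher level of Rnd3. At an adjusted p of at most 0.05, 13 of the 59 genes (22.0%) were higher and 24 (40.7%) lower, where 21.5% and 26% of all tested genes were called in these directions. The median log2 fold change of the list was -0.14, against -0.04 over all genes. Of the 13 semaphorins outside class 3, 1 was higher and 7 were lower, among them Sema4d (log2 fold change -2.74) and Sema5a (-2.33). Rnd3, a small GTPase, had a level of 368 ± 5.55 CPM (SD, n = 2) in GABAergic cells, against 56.8 ± 3.19 CPM, a log2 fold change of 2.79 ± 0.05 (SE; edgeR adjusted p = 2.65e-33). Dpysl4, a collapsin response mediator, and Gipc1, an adaptor, were higher by 1.32 ± 0.11 and 0.63 ± 0.07. Cntn2, an adhesion molecule of axons, was at 19.4 ± 0.247 and 185 ± 6.03 CPM, a log2 fold change of -3.16 ± 0.10 (edgeR adjusted p = 8.34e-27). Kdr and Flt1, receptors of vascular endothelial growth factor, also counted as lower. However, 64 of 64 Kdr and 54 of 55 Flt1 UMIs of the glutamatergic cells came from 1 barcode of replicate 2 with vascular markers. Without the dividing GABAergic cells, 14 genes were higher and 16, rather than 24, lower. The share of all tested genes called was not computed for this setting, so an excess of lower genes is not shown there.

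Astroglia had higher levels of Sema6a, Sema3b and VEGF family ligands. The test called 25 genes (42.4%) higher and 28 (47.5%) lower, with 35.8% and 34.9% of all tested genes called. Kdr and Flt1 are among the lower genes, with the limit given above. The list's median was -0.26 against 0.01 over all genes. Sema6a, a transmembrane ligand of Plxna2 and Plxna4, was at 258 ± 18.2 CPM against 18.3 ± 0.711 CPM in glutamatergic cells, a log2 fold change of 3.90 ± 0.07 (edgeR adjusted p = 1.19e-35). Sema3b was higher by 3.65 ± 0.52 at a level of only 4.42 CPM, and Vegfa by 2.83 ± 0.10. All 4 tested ligands of the VEGF family were higher. Cntn2 (-5.82), L1cam, an adhesion partner of Nrp1 (-5.28), and Dpysl5, a collapsin response mediator (-4.69), were lower, at 3.13, 1.38 and 9.74 CPM in astroglia against 185, 56.4 and 266 CPM.

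The class 3 ligand Sema3d was higher in OPC. It was at 29.2 ± 3.09 CPM in OPC and 1.55 ± 0.458 CPM in glutamatergic cells (SD, n = 2), a log2 fold change of 4.17 ± 0.21 (edgeR adjusted p = 2.87e-20). The test called 22 genes (37.3%) higher in OPC and 31 (52.5%) lower, with 32.9% and 32.3% of all tested genes called, and the list's median was -0.27 against 0.00. Plxnb3, a plexin, was higher by 3.31 ± 0.35 at 7.70 CPM, and Sema6a by 2.69 ± 0.07 at 125 CPM. Cntn2 (-5.78 ± 0.09) and Met (-4.06 ± 0.59), a receptor tyrosine kinase, were lower. Flt1 and Kdr counted as lower with the limit given above. Of the 13 other semaphorins 3 were higher and 9 lower.

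Cajal-Retzius cells had higher levels of 3 of the 4 tested VEGF family ligands. Pgf was at 55.7 ± 9.66 CPM against 3.25 ± 0.930 CPM in glutamatergic cells, a log2 fold change of 4.098 ± 0.25 (edgeR adjusted p = 5.23e-17), and Vegfa at 66.3 ± 5.78 against 13.6 ± 0.797 CPM (2.26 ± 0.16). Mical2, an actin-oxidising enzyme, was higher by 2.77 ± 0.18 and Sema6a by 2.55 ± 0.13. In this comparison 11 genes (18.6%) were higher and 27 (45.8%) lower, with 23.1% and 26% of all tested genes called, and the list's median was -0.30 where that of all genes was -0.12. Met had 0 UMIs in Cajal-Retzius cells of both libraries and was at least 2.50-fold lower, against a floor of 3 UMIs over the group. Kdr and Flt1, also at 0, again differed through the 1 glutamatergic barcode of replicate 2 with vascular markers.

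**Figure D4:**
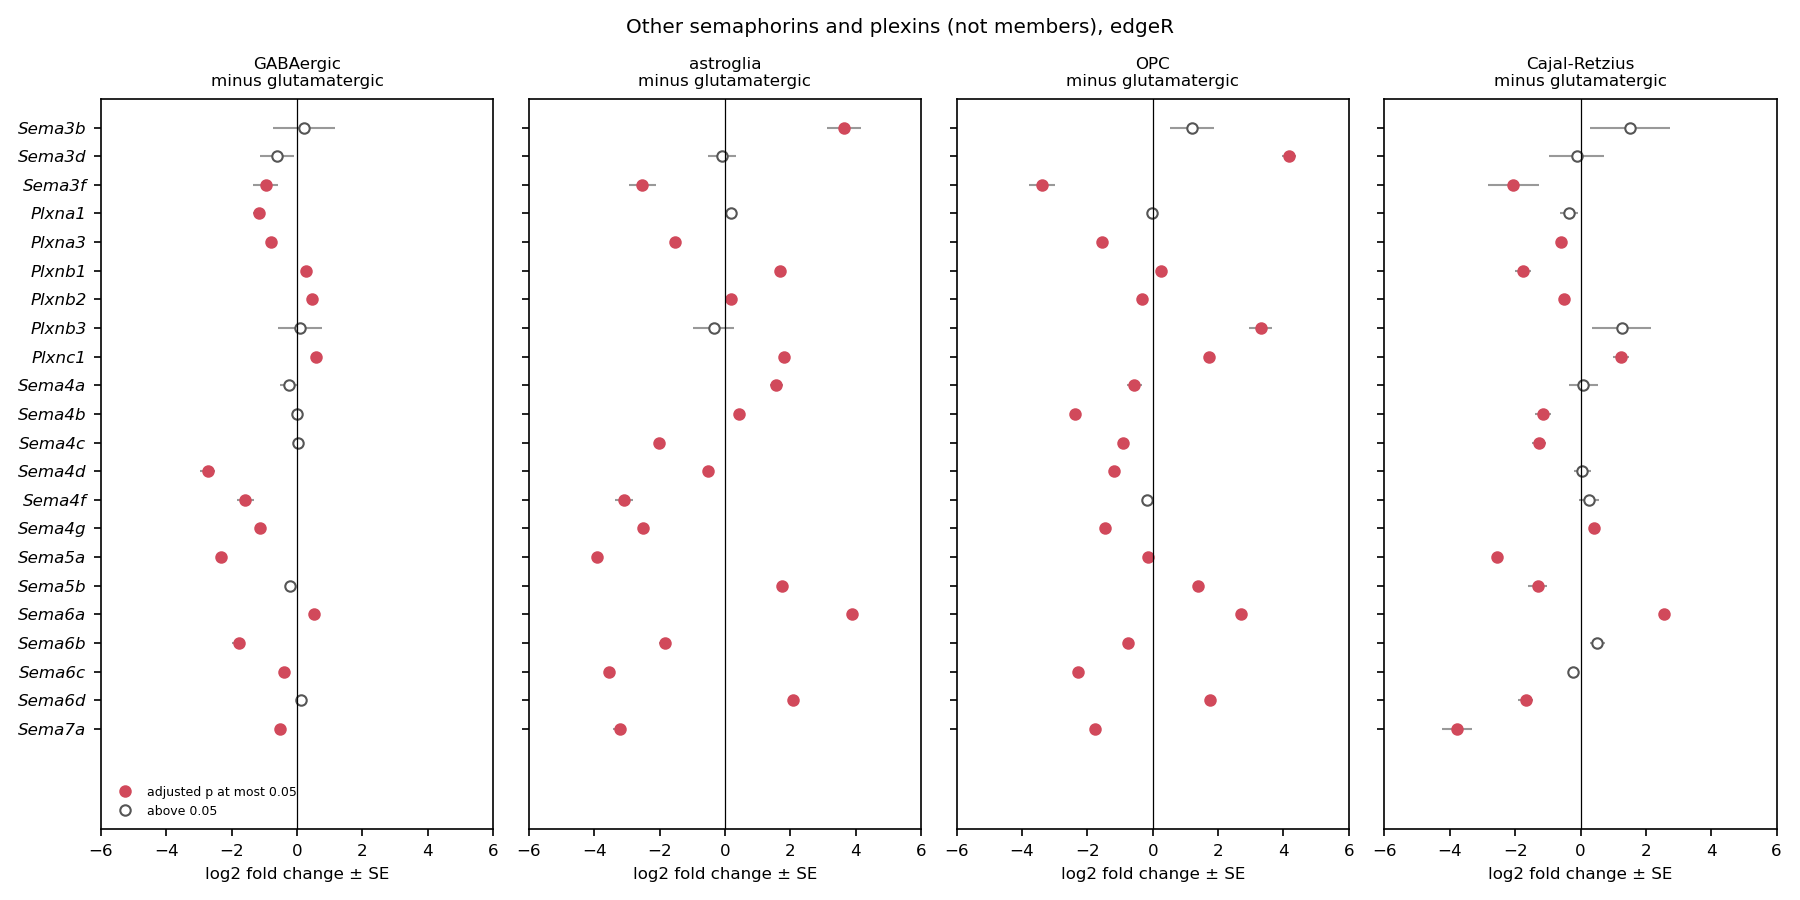
Log2 fold change (± SE, edgeR) of the tested semaphorins and plexins that are not members, in 4 cell groups against glutamatergic cells. Filled points have an adjusted p of at most 0.05, and Sema6a lies to the right of 0 in all 4 panels while Sema3d does so among the filled points in OPC.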

How the data were processed

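Per the file headers, the authors used Cell Ranger 6.0.2 to count UMIs, and the deposited counts are not normalized. Per the submitters' processing notes, Seurat 4.1.0, R 4.1.0 and mm10 were used. No source used here gives the annotation release. Members, gene lists and gates were chosen with earlier results of these data known. Counts were read with Python 3.11.15, and CPM is a gene's summed UMIs in a group per 1000000 UMIs of that group. Doublets marked by Scrublet in scanpy 1.11.5 (7.68% and 7.10% of cells) were kept in the main results and removed in an alternative. Floors are 3 UMIs, and intervals are exact Clopper-Pearson, and both cover counting error only.

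Sums of 6 groups in 2 libraries (12 sums, 5 residual degrees of freedom) were fitted with edgeR 4.0.16 (TMM, filterByExpr) in R 4.3.3, with the library as a block, since sums with the same replicate number come from the same sorted cells. Nothing in the labels says that the libraries come from separate pools, and the p-values therefore measure only how much these samples vary, which may be technical. Alternatives were DESeq2 1.42.0, other size factors, no filter, other gates and cell filters. Named genes are the members, the 3 called list genes with the largest change in each direction per comparison, and the 3 nearest genes per member, of which the text prints the first for most members. The other listed genes given with values (Sema4d, Sema5a and Vegfa) and the split of C1qa cells were chosen after their values were seen. Other glutamatergic subgroups are not reported here.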

Additional observations from a re-analysis of the deposited data

How the results depend on the processing

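Under all settings the counts of called pathway genes stayed within 1.5 times the main counts. The share of all tested genes called was computed for the main fit only. The counts under other settings therefore do not show whether the list stands above all genes. Without the replicate block, which removes the pairing of sums by library, the test called 9 higher and 21 lower for GABAergic cells, 24 and 26 in astroglia, 20 and 29 in OPC, and 10 and 22 in Cajal-Retzius cells. DESeq2 gave 12 and 18, 24 and 26, 21 and 27, and 10 and 20. Among the named pathway genes, 222 fold changes kept their direction and, in the settings with a test, their side of the threshold. These 222 include values of 1 library alone, which were judged by direction only. Another 8 lost the threshold, all of them Kdr or Flt1. The 1 that reversed was Flt1 in OPC against glutamatergic cells (0.29 without replicate 2, -3.09 without replicate 1). Leaving out a library leaves no residual degrees of freedom, so the values of 1 library alone have no test and the counts have none. Removing barcodes with Cldn5, Rgs5 or Vtn was added after seeing the data and gave 16 and 22, 25 and 26, 22 and 28, and 10 and 22. The highest group kept its place in 8 of 8 settings for every member except Sema3e (5 of 8). Member CPM moved by more than the library SD in 72 of 384 values. These include the values of each library alone, which cannot differ from the mean by more than that SD. Member shares moved in 87 of 96 values after thinning to another depth or none, and such shares depend on depth by design. Neither count measures how stable the members are. Levels near 1 CPM, such as those of Sema3e outside astroglia and C1qa cells, cannot be ordered at this depth.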
